A study of Mus musculus with 18 samples.

Results

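The calmodulin kinase genes described here are the 4 genes of the Ca2+/calmodulin-dependent protein kinase II (CaMKII) subunits, Camk2a, Camk2b, Camk2d and Camk2g, the genes of 2 small proteins that inhibit the kinase, Camk2n1 and Camk2n2, the nuclear kinase gene Camk4, and the genes of the upstream kinases that switch CaMK1 and CaMK4 on, Camkk1 and Camkk2. They were found by gene name in the table of raw read counts, where all 9 had a row among 55487 genes. The counts came from mRNA of the frontal cortex of 18 mice aged 9 to 10 months, 3 females and 3 males in each of 3 genotypes. WT mice carried no transgene. APP/PS1 mice carried the amyloid transgenes of their line, which drive amyloid deposition. APP/PS1/FTnKO mice carried the same transgenes and lacked farnesyltransferase (FT), the enzyme that attaches farnesyl lipids to proteins such as Ras, in forebrain neurons after birth.

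Per the study's methods the 3 genotypes were littermates homozygous for a floxed allele of Fntb, the gene of the FT β-subunit, whereas the series' design text names C57BL/6J for the WT mice. Cre recombinase was driven by the CaMKIIα promoter, that is, by regulatory sequence of Camk2a itself, and was present in the APP/PS1/FTnKO mice alone. No mice with Cre and an unfloxed Fntb were analysed here. The loss of FT and the presence of Cre hence cannot be told apart in any comparison of APP/PS1/FTnKO mice. Mice with Cre and floxed Fntb but without the amyloid transgenes were not analysed either. APP/PS1/FTnKO and WT mice thus differ in the amyloid transgenes as well as in FT and Cre, and that comparison cannot tell these apart.

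CaMKII is a large ring of catalytic subunits that Ca2+-loaded calmodulin opens and that then phosphorylates itself, which lets it stay active after the Ca2+ signal has gone. In forebrain excitatory neurons the α and β subunits make up most of the kinase, sit in the postsynaptic density and are needed for long-term potentiation and spatial memory. The γ and δ subunits are expressed in many tissues, CaMK4 acts in the nucleus on transcription factors such as CREB, and CaMKK2 also phosphorylates AMPK, the cell's energy sensor.

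The mice gave between 15925432 and 21030935 counted reads each. Mouse 19622, a WT female, stood apart from the others over all genes and is given separately at the end, so the values that follow are from 17 mice (5 WT, 6 APP/PS1, 6 APP/PS1/FTnKO). Levels are given as CPM, read counts scaled to the size of each library and by edgeR's TMM factors. Each member was counted well above the filter on low counts, from 522 reads for Camk4 in its lowest mouse to 87471 for Camk2a in its highest, and all 9 passed it. Fntb ranged from 7.84 to 14.7 CPM in APP/PS1/FTnKO mice. It had 14.2, 14.3, 14.6, 17.1, 28.7 and 32.1 CPM in APP/PS1 mice and 14.1, 16.8, 16.9, 30.8 and 32.2 CPM in WT mice. In both of these genotypes some mice thus lay near the APP/PS1/FTnKO levels and others far above them. The groups thus overlapped slightly, and the log2 fold change of Fntb in APP/PS1/FTnKO against APP/PS1 mice was -0.77 ± 0.26 (SE; adjusted p = 0.251, edgeR quasi-likelihood test), in whole cortex that also holds glia and interneurons.

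Promoter sequence was given for 5 of the 9 genes (Camk2b, Camk2d, Camk2n2, Camkk1 and Camkk2) in the RefSeq table used here. Those of Camkk2, the only gene of the set that passed the test, of its paralog Camkk1, which did not, and of Camk2b, which DESeq2 called beside Camkk2, are shown from 250 bases before to 50 bases after the annotated start, 5′ to 3′ on the gene's own strand (GRCm38.p6, RefSeq). Capitals mark the letters GGGCGG, the GC box read by Sp1-type factors, and TGACG, the core of the cAMP response element read by CREB, each on either strand.
Camkk2: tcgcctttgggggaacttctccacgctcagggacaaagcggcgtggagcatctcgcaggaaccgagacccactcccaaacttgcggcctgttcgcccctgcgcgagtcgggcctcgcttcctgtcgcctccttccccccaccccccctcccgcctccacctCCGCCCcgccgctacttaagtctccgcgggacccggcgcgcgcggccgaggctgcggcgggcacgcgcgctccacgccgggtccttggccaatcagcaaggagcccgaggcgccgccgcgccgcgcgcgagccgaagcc
Camkk1: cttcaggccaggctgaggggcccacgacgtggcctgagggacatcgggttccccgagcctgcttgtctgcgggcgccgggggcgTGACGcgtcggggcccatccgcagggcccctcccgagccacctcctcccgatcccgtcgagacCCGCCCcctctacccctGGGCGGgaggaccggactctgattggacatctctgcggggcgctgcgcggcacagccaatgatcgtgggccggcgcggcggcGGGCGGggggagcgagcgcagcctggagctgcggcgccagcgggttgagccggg
Camk2b: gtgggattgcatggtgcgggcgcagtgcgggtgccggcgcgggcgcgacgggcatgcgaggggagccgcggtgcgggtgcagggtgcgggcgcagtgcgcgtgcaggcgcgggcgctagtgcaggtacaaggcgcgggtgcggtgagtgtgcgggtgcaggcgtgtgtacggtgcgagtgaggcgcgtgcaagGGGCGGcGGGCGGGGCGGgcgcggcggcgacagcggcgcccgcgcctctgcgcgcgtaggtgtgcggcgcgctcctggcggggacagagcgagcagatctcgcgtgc
The Camkk2 window, chr5:122779361-122779660 on the minus strand, held 1 GC box, which began at -89 from the start, and no TGACG. The Camkk1 window, chr11:73018738-73019037 on the plus strand, held 3 GC boxes and 1 TGACG at -166. The Camk2b window, chr11:6065699-6065998 on the minus strand, held 3 GC boxes that began at -57, -50 and -45, of which the last 2 overlapped by 1 base, and no TGACG. It lay inside the gene's GENCODE span, chr11:5969644-6066362, so the RefSeq start used here differs from the outermost GENCODE start. Of 32851 promoters of this length in the table, 35.7% held a GC box and 20.8% a TGACG. G and C made up 73.3% of the Camkk2 window, 75.3% of the Camkk1 window and 77.3% of the Camk2b window, where the median promoter had 52.7%.

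The first comparison asked what neuronal loss of FT, together with Cre, changed in the presence of amyloid. None of the 9 genes passed the threshold (adjusted p under 0.05) in APP/PS1/FTnKO against APP/PS1 mice, where 0.327% of the 17414 genes tested did. The fitted values were nevertheless mostly on one side. Of the 9 log2 fold changes 8 were below 0, with a median of -0.17 beside -0.00 over all genes, and 7 members had an unadjusted p under 0.05, as had 11.5% of all genes. The members share their mice and are not independent of each other. In bulk tissue fewer cells of a type and less RNA per cell cannot be told apart. Against WT mice, which also lack the amyloid transgenes, Camkk2 fell in APP/PS1/FTnKO mice and no other member passed, beside 3.87% of all genes. The parts of amyloid and of FT loss with Cre cannot be told apart there. In that comparison 5 members had an unadjusted p under 0.05, as had 22.1% of all genes. In APP/PS1 against WT mice 0 members passed by edgeR and 0 by DESeq2, beside 1.5% and 2.19% of all genes, and Camkk2 alone had an unadjusted p under 0.05, as had 14% of all genes.

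**Figure D1:**
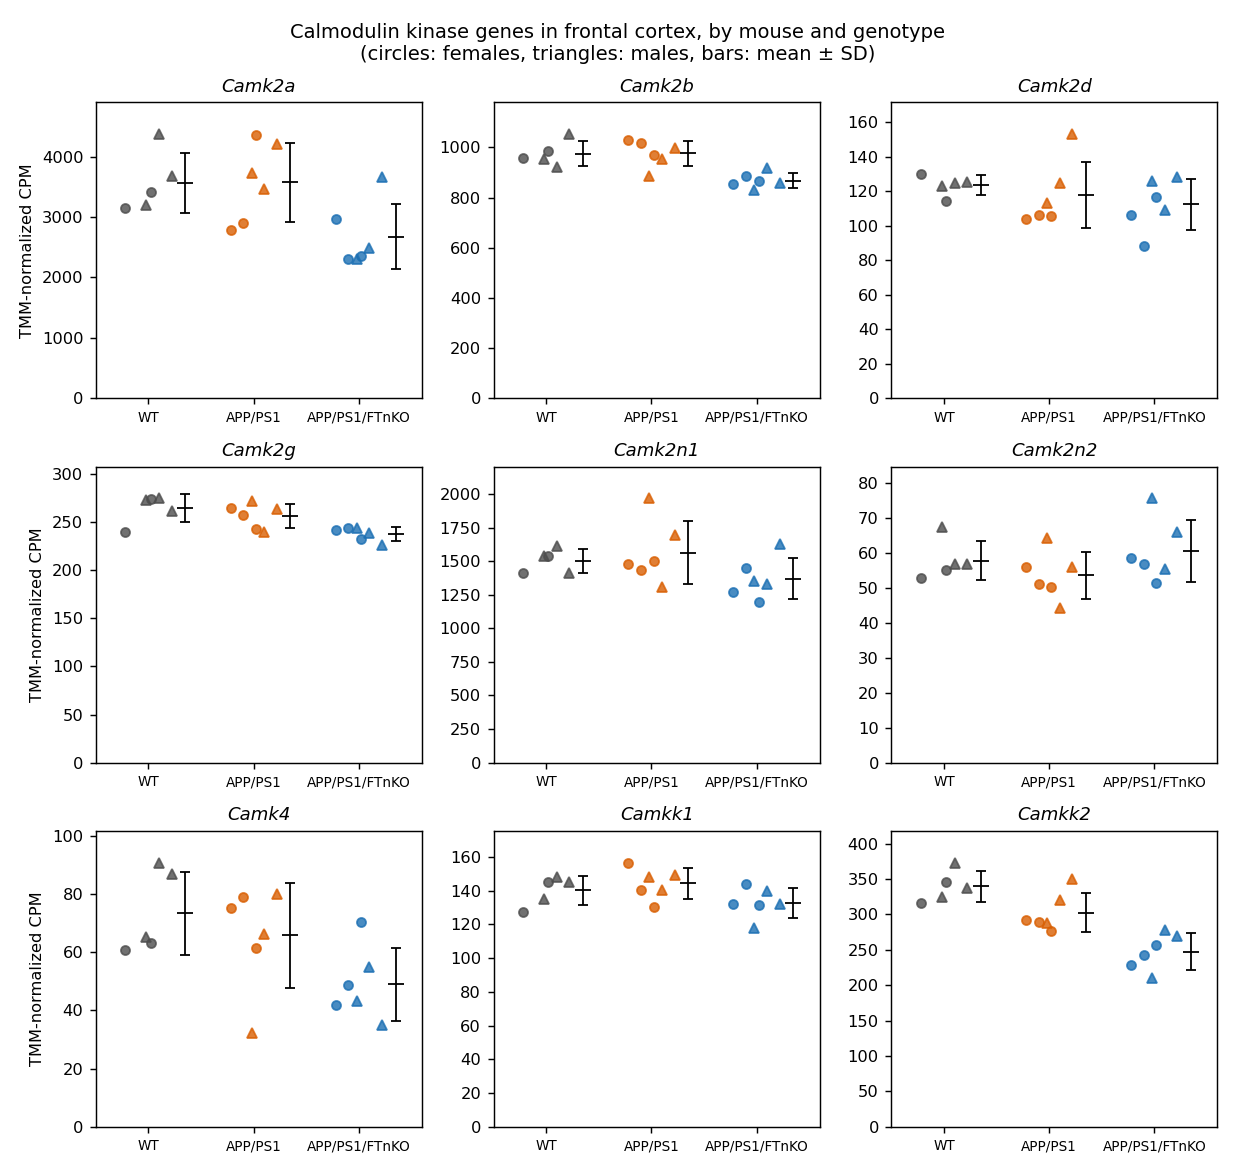
TMM-normalized CPM (y axis, from 0) of the 9 genes in each of 17 mice by genotype (x axis). Circles are females, triangles are males, and bars give the mean ± SD. Camkk2 and Camk2b are lower in every APP/PS1/FTnKO mouse than in every WT mouse, and in the other panels these groups overlap.

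Camkk2 (ENSMUSG00000029471, chr5:122731170-122779409, minus strand) lay at 317, 325, 338, 346 and 373 CPM in the 5 WT mice. In APP/PS1 mice it ranged from 276 to 349 CPM with a median of 290, and in APP/PS1/FTnKO mice from 210 to 278 CPM with a median of 250.0. Every APP/PS1/FTnKO mouse was thus below every WT mouse, and 5 of 6 were below the lowest APP/PS1 mouse, with the sixth inside the lower end of that group. The log2 fold change against WT was -0.45 ± 0.07 (SE), with an adjusted p of 0.00279 by edgeR's quasi-likelihood test. The exact two-sided permutation test of the mean CPM gave p = 0.00216, the smallest that 462 assignments allow. It was the smallest unadjusted p of the 27 such tests (9 genes in 3 comparisons), which are given without adjustment throughout. Against APP/PS1 mice the log2 fold change was -0.29 ± 0.07, with an adjusted p of 0.0758, which missed the threshold (exact permutation p = 0.00433, 6 against 6 mice). In APP/PS1 against WT mice it was -0.16 ± 0.07 (adjusted p = 0.322, edgeR; exact permutation p = 0.0433, and 0.0519 with RLE scaling). The 3 genotypes were hence ordered WT, APP/PS1, APP/PS1/FTnKO by mean level (340 ± 21.8, 303 ± 27.3 and 248 ± 25.6 CPM, SD), where only the ends differed past the adjusted threshold. The step from WT to APP/PS1 shrank to -0.03 ± 0.06 log2 with the RNA integrity number (RIN) in the fit (adjusted p = 0.932, edgeR) and to -0.08 ± 0.09 with 18 mice (adjusted p = 0.757, edgeR).

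The call for Camkk2 against WT held when any 1 of the 17 mice was left out, with a log2 fold change between -0.47 and -0.39 and an adjusted p between 0.0015 and 0.0169. With mouse 19622 in the fit it was lost (-0.37, adjusted p = 0.0583). The call against APP/PS1 was gained under other processing, with adjusted p = 0.00917 by DESeq2, 0.00299 in edgeR with a term for RIN and 0.041 without a filter on low counts. It was not gained in the other 4 of the 7 alternatives, with adjusted p = 0.0811 under RLE scaling, 0.0894 without the sex term, 0.205 with only the genotypes compared and 0.594 with 18 mice, nor in any of the 17 fits that left out 1 mouse (adjusted p from 0.0566 to 0.159, edgeR). RIN itself differed between the groups, with medians of 8.7 in WT, 8.2 in APP/PS1 and 8.6 in APP/PS1/FTnKO mice, and its part in the result was not tested beyond that fit.

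**Figure D2:**
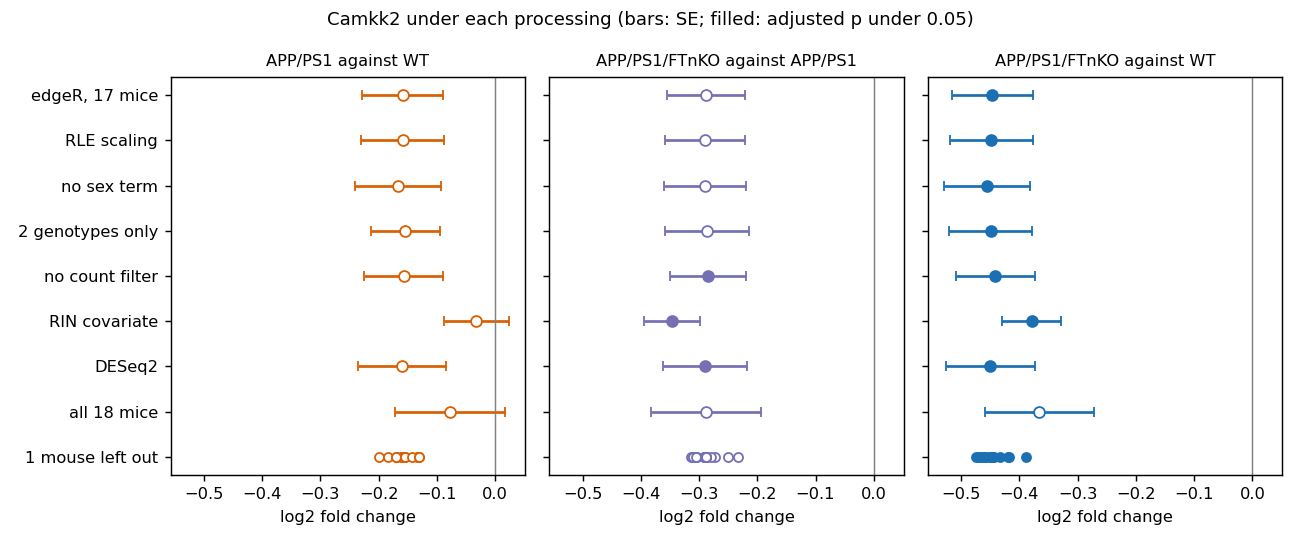
Log2 fold change of Camkk2 (x axis) in the 3 comparisons under each processing (y axis). Bars are SE, filled points have an adjusted p under 0.05, and the lowest line holds 17 fits that each left out 1 mouse. All points are below 0, and the comparison of APP/PS1/FTnKO with WT is filled except with all 18 mice.

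Camkk1 (ENSMUSG00000020785, chr11:73019008-73042073, plus strand), the other upstream kinase, did not pass in any comparison. The WT mice had 128, 135, 145, 145 and 148 CPM. APP/PS1 mice ranged from 130 to 157 CPM with a median of 144, and APP/PS1/FTnKO mice from 118 to 144 CPM with a median of 132. The groups overlapped throughout. Its log2 fold change was -0.12 ± 0.06 against APP/PS1 (adjusted p = 0.426) and -0.08 ± 0.06 against WT (adjusted p = 0.469, edgeR). The value against WT was -0.04 without APP/PS1/FTnKO mouse 16974, the lowest of its group, and -0.00 with 18 mice. Per kilobase of exon, the level of Camkk2 was 0.795 to 0.86 times that of Camkk1 in the 5 WT mice, 0.636 to 0.797 times in APP/PS1 mice and 0.575 to 0.695 times in APP/PS1/FTnKO mice. This ratio was lower in each APP/PS1/FTnKO mouse than in each WT mouse, while it overlapped between APP/PS1 mice and either of the others.

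Camk4 (ENSMUSG00000038128, chr18:32934931-33191228, plus strand), the nuclear kinase that CaMKK activates, had the widest spread relative to its mean in each genotype, with a coefficient of variation of 19.5% in WT, 27.2% in APP/PS1 and 25.5% in APP/PS1/FTnKO mice. The WT mice fell into 60.7, 63.1 and 65.3 CPM and, higher, 86.8 and 90.8 CPM. APP/PS1 mice ranged from 32.4 to 80.2 CPM with a median of 70.8, and APP/PS1/FTnKO mice from 34.8 to 70.5 CPM with a median of 46.1. Of the APP/PS1/FTnKO mice 5 of 6 were below the lowest WT mouse, whereas the single lowest value of all belonged to an APP/PS1 male with a RIN of 7.7. The log2 fold change against WT was the largest of the set, -0.60 ± 0.20, yet its adjusted p was 0.101 (edgeR; exact permutation p = 0.0173). Against APP/PS1 it was -0.42 ± 0.19 (adjusted p = 0.411, edgeR; exact permutation p = 0.0952). The value against WT passed when that APP/PS1 male, 16975, was left out (adjusted p = 0.0386, edgeR) and when the highest APP/PS1/FTnKO mouse, 19722, was (adjusted p = 0.0495, edgeR). Exons of Camk4 overlap those of an antisense gene, 2310026I22Rik, over 72 bases, and this gene had 79 counts over all mice.

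Camk2a (ENSMUSG00000024617, chr18:60925618-60988152, plus strand) encodes the α subunit that dominates the forebrain kinase. It lay at 3145, 3204, 3406, 3674 and 4371 CPM in WT mice. APP/PS1 mice ranged from 2782 to 4352 CPM with a median of 3600, and APP/PS1/FTnKO mice from 2297 to 3656 CPM with a median of 2419. In the latter group 5 of 6 mice were below the lowest WT mouse and 4 of 6 below the lowest APP/PS1 mouse, while 1 male, 19720, reached 3656 CPM and sat among the controls. The mean was 25.2% lower than in APP/PS1 mice and 24.9% lower than in WT mice. Neither difference passed across all genes. The log2 fold change was -0.42 ± 0.13 against APP/PS1 (adjusted p = 0.196, edgeR; exact permutation p = 0.0303) and -0.39 ± 0.13 against WT (adjusted p = 0.0983, edgeR; exact permutation p = 0.0238). Without mouse 19720 the second adjusted p was 0.0494. In APP/PS1 against WT mice the value was 0.02 ± 0.13.

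Camk2b (ENSMUSG00000057897, chr11:5969644-6066362, minus strand), the subunit that binds actin and anchors the kinase in spines, varied little between mice of a group. Its WT levels were 924, 955, 959, 986 and 1054 CPM. APP/PS1 mice ranged from 888 to 1029 CPM with a median of 983, and APP/PS1/FTnKO mice from 828.7 to 918 CPM with a median of 861. All 6 APP/PS1/FTnKO mice were below all 5 WT mice, by a gap of under 7 CPM between the nearest mice, and 5 of 6 were below the lowest APP/PS1 mouse. Camk2b and Camkk2 were the 2 members without overlap in that comparison, beside 2.85% of all genes that were lower without overlap. None of the 9 was lower without overlap in APP/PS1/FTnKO against APP/PS1 (0.373% of all genes) or in APP/PS1 against WT (0.695%). The log2 fold change was -0.17 ± 0.05 both against APP/PS1 (adjusted p = 0.148, edgeR; exact permutation p = 0.00433) and against WT (adjusted p = 0.0638, edgeR; exact permutation p = 0.00433), and it was -0.00 ± 0.05 in APP/PS1 against WT. The value against WT passed without APP/PS1 mouse 16975 (adjusted p = 0.0395, edgeR) and without APP/PS1/FTnKO mouse 18973 (adjusted p = 0.0426, edgeR). With 18 mice the value against WT was -0.07 ± 0.09 (adjusted p = 0.719, edgeR).

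Camk2g (ENSMUSG00000021820, chr14:20734875-20794088, minus strand), whose γ subunit can carry calmodulin to the nucleus, had 240, 262, 273, 275 and 275 CPM in WT mice. It ranged from 240 to 272 CPM in APP/PS1 mice with a median of 261, and from 226 to 244 CPM in APP/PS1/FTnKO mice with a median of 241. The lowest WT mouse lay within the APP/PS1/FTnKO range. Its log2 fold change was -0.11 ± 0.04 against APP/PS1 (adjusted p = 0.346) and -0.15 ± 0.05 against WT (adjusted p = 0.0728, edgeR).

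Camk2d (ENSMUSG00000053819, chr3:126596302-126846326, plus strand), best known as the subunit of heart muscle, had 115, 123, 125, 125 and 130 CPM in WT mice, 104 to 153 CPM in APP/PS1 mice (median 110) and 88.2 to 128 CPM in APP/PS1/FTnKO mice (median 113). The 3 groups overlapped, and the log2 fold changes lay between -0.12 and -0.06 in the 3 comparisons with SE of 0.08 each. The value against WT ranged from -0.16 without APP/PS1/FTnKO mouse 19722 to -0.06 without WT mouse 18944, and it was -0.35 ± 0.16 with 18 mice (adjusted p = 0.259, edgeR). Camk2d was the member with the lowest p for sex, at 0.20 ± 0.07 log2 higher in males (unadjusted p = 0.00899, adjusted p = 0.575, edgeR). No member passed for sex, beside 0.0689% of all genes. No gene passed for a difference of the genotype effect between females and males, with 0 calls of 17414 in each comparison by edgeR and 578, 705 and 312 genes at an unadjusted p under 0.05 in APP/PS1/FTnKO against APP/PS1, in APP/PS1 against WT and in APP/PS1/FTnKO against WT.

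**Figure D3:**
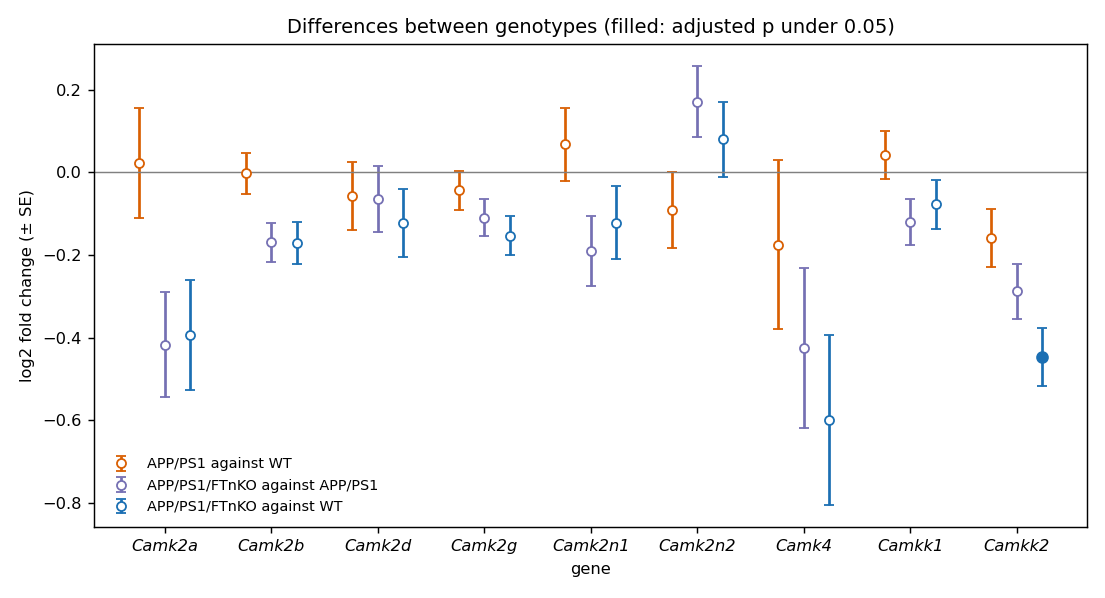
Log2 fold change ± SE (y axis) of the 9 genes (x axis) in the 3 comparisons, 17 mice. Filled points have an adjusted p under 0.05 and open points do not. The 1 filled point is Camkk2 in APP/PS1/FTnKO against WT mice, at -0.45, and Camk2n2 is the member above 0 in both comparisons of APP/PS1/FTnKO mice.

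The 2 inhibitor genes differed in sign. Camk2n1 (ENSMUSG00000046447, chr4:138454314-138460123, plus strand) encodes a small protein that binds the active catalytic domain. Its WT levels were 1412, 1412, 1536, 1540 and 1612 CPM, APP/PS1 mice ranged from 1309 to 1969 CPM (median 1491), and APP/PS1/FTnKO mice from 1195 to 1626 CPM (median 1339). Its log2 fold change was -0.19 ± 0.08 against APP/PS1 (adjusted p = 0.393) and -0.12 ± 0.09 against WT (adjusted p = 0.443, edgeR). Without the APP/PS1 male 16975, which had the highest level, the value against APP/PS1 was -0.12, and over the 17 fits that left out 1 mouse it ranged from -0.25 to -0.12 and the value against WT from -0.17 to -0.09.

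Camk2n2 (ENSMUSG00000051146, chr16:20619215-20621287, minus strand), its paralog, was the member with the fewest reads beside Camk4. WT mice had 52.8, 55.1, 56.8, 56.9 and 67.3 CPM, APP/PS1 mice 44.3 to 64.2 CPM (median 53.5) and APP/PS1/FTnKO mice 51.3 to 75.6 CPM (median 57.5). It was the only member with a positive value against APP/PS1, 0.17 ± 0.09 (adjusted p = 0.467), and its value against WT was 0.08 ± 0.09 (adjusted p = 0.644, edgeR). The highest level in each amyloid group was that of the male with the lowest RIN (7.6 and 7.7). With RIN as a covariate the value against APP/PS1 was 0.24 ± 0.06 (adjusted p = 0.0506, edgeR). In APP/PS1 against WT mice RIN moved the value from -0.09 ± 0.09 to -0.27 ± 0.07 (adjusted p = 0.16, edgeR). Without APP/PS1 mouse 19619, the lowest of its group, the value against APP/PS1 was 0.10, and without APP/PS1/FTnKO mouse 16974, the highest, the value against WT was 0.02. A difference in sign between Camk2n1 and Camk2n2 was not itself tested.

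Which members pass depends on the test. DESeq2, with the same 17 mice and sex as a term, called Camkk2 and Camk2b lower in APP/PS1/FTnKO against APP/PS1 mice (adjusted p = 0.00917 and 0.0163), beside 1.38% of all genes. Against WT it called Camkk2, Camk2b, Camk2g and Camk2a (adjusted p = 1.06e-06, 0.00745, 0.0191 and 0.0385), beside 7.64%. With RIN as a covariate edgeR called Camkk2 and, at an adjusted p of 0.0497, Camk2b against APP/PS1, beside 1.5% of all genes, and Camkk2 alone against WT, beside 2.23%. Without the filter on low counts Camkk2 and Camk2a passed against APP/PS1 (0.314% of all genes), and Camkk2, Camk2a and Camk4 passed against WT (2.93%). With all 18 mice 0 members passed in edgeR in either comparison, beside 0.0116% and 1.51% of all genes, and 2 members against APP/PS1 and 4 against WT had an unadjusted p under 0.05, as had 6.66% and 19.1% of all genes.

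Levels of different genes were compared per kilobase of merged exons. Camk2a (436 ± 92.9 CPM per kilobase, SD over 17 mice) and Camk2n1 (333 ± 41.2) were highest, and Camk2a exceeded Camk2n1 in 16 of 17 mice. Camk2b followed at 103 ± 7.38. Camk2n2 (44.4 ± 5.76), Camk2g (39.5 ± 2.5) and Camkk1 (37.3 ± 2.62) lay close together and did not keep their order, since Camk2n2 was above Camk2g in 14 of 17 mice and Camk2g above Camkk1 in 12 of 17. Camkk2 (26.9 ± 4.14), Camk4 (19.1 ± 5.39) and Camk2d (5.23 ± 0.643) came last, in this order in every mouse. Exon lengths are those of the annotation with all isoforms merged, 22493 bases for Camk2d and 1291 for Camk2n2, so a gene whose main isoform uses part of these exons is placed too low.

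Among the 4 subunits, Camk2a made up 73.8% to 79.6% of the summed level per kilobase in WT mice, 70.1% to 79.7% in APP/PS1 mice and 68.9% to 78.4% in APP/PS1/FTnKO mice. Camk2b took 13.8% to 18.5%, 14.5% to 21.2% and 15.0% to 21.7% in the same order. Camk2g took between 5.2% and 8.63%, and Camk2d between 0.641% and 1.27%, over all 17 mice. The level of Camk2a was 4.01 to 5.78 times that of Camk2b in WT mice, 3.31 to 5.49 times in APP/PS1 mice and 3.17 to 5.22 times in APP/PS1/FTnKO mice. The groups overlapped in each of these shares and ratios.

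**Figure D4:**
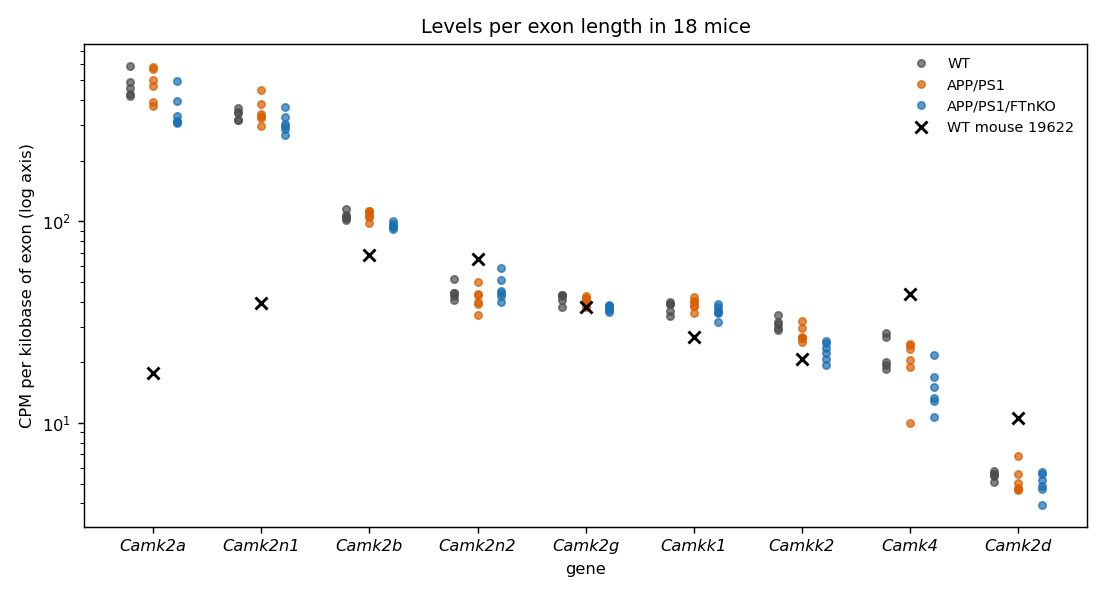
CPM per kilobase of exon (y axis, log) of the 9 genes (x axis, by mean level) in 17 mice coloured by genotype, with WT mouse 19622 as a cross, all in the scaling of 18 mice. The cross lies far below the WT mice for Camk2a and Camk2n1 and above them for Camk2n2, Camk4 and Camk2d.

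The other genes of the pathway were read from 5 lists, which were chosen with earlier results of these data known. The genes of a list share their mice and are not independent of each other. Of 14 other calmodulin-dependent kinases and related enzymes, 1 rose and none fell in APP/PS1/FTnKO against WT mice (3.87% of all genes passed), and none passed in the other comparisons. The gene was Pnck, a kinase of the CaMK1 family, at 77.3 to 94.4 CPM in APP/PS1/FTnKO and 60.6 to 82.2 CPM in WT mice (0.30 ± 0.07 log2, adjusted p = 0.0327, edgeR). The list's median log2 fold change was -0.01 beside 0.01 over all genes in that comparison, -0.04 beside -0.00 in APP/PS1/FTnKO against APP/PS1 and 0.05 beside -0.00 in APP/PS1 against WT.

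Of 7 calmodulins and calmodulin-binding buffers, Pcp4, a small protein that speeds calmodulin's exchange of Ca2+, fell in APP/PS1/FTnKO against APP/PS1 mice, where 0.327% of all genes passed. It lay at 22.3 to 25.2 CPM against 26.5 to 36.2 CPM, without overlap as were 0.373% of all genes on the lower side (-0.35 ± 0.07 log2, adjusted p = 0.0411, edgeR). No other gene of the list passed in any comparison, and the medians were -0.05, -0.02 and -0.07 in APP/PS1/FTnKO against APP/PS1, APP/PS1 against WT and APP/PS1/FTnKO against WT.

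Of 16 partners and substrates of CaMKII at the synapse, 4 fell and none rose in APP/PS1/FTnKO against WT mice, where 3.87% of all genes passed in either direction, and none passed in the other comparisons. All 16 fitted values were below 0 against WT, with a median of -0.24 beside 0.01 over all genes. This is a description, since the list was chosen with earlier results of these data known. Arc, an activity-induced gene whose protein binds inactive CaMKII, ranged from 99.4 to 324 CPM against 312 to 411 CPM (-0.95 ± 0.21 log2, adjusted p = 0.0215). Homer1, a postsynaptic scaffold, lay at 106 to 179 CPM against 179 to 294 CPM (-0.65 ± 0.17, adjusted p = 0.0397). Lrrc7, the densin scaffold that binds the α subunit, lay at 51.0 to 69.8 CPM against 74.3 to 94.95 CPM, without overlap (-0.45 ± 0.12, adjusted p = 0.0409). Kalrn, a spine exchange factor that CaMKII phosphorylates, lay at 497 to 600 CPM against 626 to 746 CPM, also without overlap (-0.26 ± 0.06, adjusted p = 0.0227, edgeR for all 4), as 2.85% of all genes were lower without overlap. The list's median was -0.15 in APP/PS1 against WT and -0.08 in APP/PS1/FTnKO against APP/PS1 mice.

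Of 14 phosphatases of the cascade and their regulators none passed in any comparison, and 11 of 14 values were below 0 in each. The smallest unadjusted p-values belonged to Ppp3cb, a calcineurin catalytic subunit, with -0.18 ± 0.06 log2 in APP/PS1/FTnKO against WT (adjusted p = 0.109), Ppm1e, a CaM kinase phosphatase, with -0.26 ± 0.10 (adjusted p = 0.124), Ppp1cc with -0.19 ± 0.08 (adjusted p = 0.178, edgeR) and Ppp1ca, also a catalytic subunit of protein phosphatase 1, with -0.11 ± 0.05 in APP/PS1/FTnKO against APP/PS1 (adjusted p = 0.384, edgeR). The medians were -0.08, -0.04 and -0.10 in APP/PS1/FTnKO against APP/PS1, APP/PS1 against WT and APP/PS1/FTnKO against WT.

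Of 17 targets of CaMKK and CaMK4, among them the AMPK subunits and CREB-related genes, none passed. The smallest unadjusted p-values belonged to Hdac4, a histone deacetylase that CaM kinases send out of the nucleus, with -0.25 ± 0.07 log2 in APP/PS1 against WT (adjusted p = 0.112), Atf1, a CREB relative, with 0.27 ± 0.08 in APP/PS1/FTnKO against WT (adjusted p = 0.0657), Bdnf, a neurotrophin gene, with -0.43 ± 0.16 in APP/PS1 against WT (adjusted p = 0.218), and Mef2d, a transcription factor, with -0.14 ± 0.06 in APP/PS1/FTnKO against WT (adjusted p = 0.145, edgeR). The medians were 0.01, -0.07 and -0.05 in the same order of comparisons.

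The genes whose log2 CPM followed each member most closely over the 17 mice were listed as a description, since all points share their libraries. For Camkk2 they were Klf10, Cdk5r1 and Klf13 (Pearson r = 0.954, 0.951 and 0.945). For Camk2a they were Neurl1b, Kctd2 and Fjx1 (0.956, 0.897 and 0.896), for Camk2b 2010300C02Rik, Rragd and Stk32c (0.924, 0.888 and 0.879), and for Camk4 Copg2, Gucy1b1 and Vcp (0.925, 0.922 and 0.92). The genes nearest to Camk2n1 were Mgll, Agap3 and Csnk1g2 (0.896, 0.895 and 0.867), to Camkk1 Nsun2, Zfand5 and Arl1 (0.848, 0.846 and 0.843), to Camk2d Rfx3, Shisal1 and Fat4 (0.856, 0.852 and 0.845), to Camk2n2 Scd1, Fbxo5 and Gm20083 (0.845, 0.834 and 0.833) and to Camk2g Nfic, Alox12b and Ndufb6 (0.832, 0.831 and 0.789). With the genotype means taken out, r was 0.93 for Klf10 with Camkk2 and 0.927 for Neurl1b with Camk2a, and the lowest of the 27 was 0.503 for Ndufb6 with Camk2g.

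Cell type markers are given by group, and how far they followed the members between mice was not measured. The summed level of 10 excitatory neuron markers was 1118 to 1521 CPM in APP/PS1/FTnKO, 1332 to 2056 CPM in APP/PS1 and 1503 to 2106 CPM in the 5 WT mice, and 1 of the 10, Slc17a7, the cortical vesicular glutamate transporter, fell in APP/PS1/FTnKO against WT mice (-0.46 ± 0.12 log2, adjusted p = 0.0396, edgeR), with all 10 values below 0. Their part in the results above was not tested. Against APP/PS1 none of the 10 passed and 6 of 10 values were below 0, with a median of -0.03, while Slc17a7 was at -0.38 ± 0.11 (adjusted p = 0.177, edgeR). In that comparison, where 8 of 9 members had values below 0, all 8 interneuron markers had values above 0 (median 0.12) and all 7 microglial markers values below 0 (median -0.26), beside a median of -0.00 over all genes, and none of them passed. The part of these in the members' values was not tested either. Of 8 interneuron markers none passed in any comparison, and the same was true of 7 markers of oligodendrocytes, 5 of endothelium, 7 of striatum and the 5 tested of 8 of cerebellum. Of 7 astrocyte markers 1 rose (Gfap) in both amyloid genotypes against WT, and of 7 microglial markers 4 rose in APP/PS1 and 2 in APP/PS1/FTnKO against WT mice. Over all genes 1.5% passed in APP/PS1 against WT, 3.87% in APP/PS1/FTnKO against WT and 0.327% in APP/PS1/FTnKO against APP/PS1 mice. The summed microglial level was 340 to 381 CPM in WT, 460 to 781 CPM in APP/PS1 and 359 to 595 CPM in APP/PS1/FTnKO mice. The summed striatal level ranged from 720 to 2088 CPM over the 17 mice and overlapped between all groups.

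Mouse 19622 lay outside the range of the other 5 WT mice in each of the 9 genes. In the scaling of all 18 mice its Camk2a level was 132 CPM where the others had 3137 to 4396 CPM, a 26.95-fold lower value than their mean, and its Camk2n1 level was 175 CPM against 1408 to 1622 CPM, 8.57-fold lower. Camk2b (621 against 929 to 1054 CPM), Camkk2 (226 against 316 to 375 CPM) and Camkk1 (99.8 against 127 to 149 CPM) were lower to a smaller extent, and Camk2g (239 against 240 to 277 CPM) lay just below the range. Camk2d (239 against 114 to 130 CPM), Camk4 (141 against 60.5 to 91.3 CPM) and Camk2n2 (83.7 against 52.7 to 67.1 CPM) were higher. The subunit ratio turned with it, since its level of Camk2b per kilobase was above that of Camk2a. Its summed cerebellar markers were 2709 CPM where the other 17 mice had 31.6 to 65.0 CPM and 1 marker, Gabra6, was at 0 in the other WT mice, and its summed excitatory cortical markers 463 CPM where they had 1118 to 2106 CPM, so its markers go against the tissue on its label. With this mouse among the WT mice the log2 fold change of Camk2a in APP/PS1/FTnKO against WT was -0.12 ± 0.44 and that of Camk2n1 was 0.12, on the other side of 0.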

How the data were processed

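Total RNA of the frontal cortex of 18 mice was made into stranded mRNA libraries and sequenced in pairs. Per the study's methods and the submitters' processing notes the authors used Trimmomatic 0.33 for trimming, HISAT2 2.1.0 for alignment to GRCm38 and featureCounts for counting by gene, and the deposited table holds these raw counts, unnormalized. How featureCounts was set for strand and multi-mapping reads is not given in the sources at hand. 1 WT sample was left out by the authors without being named. Mouse 19622 was set apart here by name in advance, and its distance from the others was measured afterwards.

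Counts of 17 mice were fitted in edgeR 4.0.16 (R 4.3.3) with TMM factors, a filter at 10 counts (filterByExpr) and genotype plus sex as terms, by the quasi-likelihood F test with Benjamini-Hochberg adjustment over 17414 genes and a threshold of 0.05. SE was the log2 fold change over the root of F. Alternatives were DESeq2 1.42.0, RLE scaling, no filter, no sex term, a RIN term, only the genotypes compared, all 18 mice, and each mouse left out. Mean CPM was also compared by exact two-sided permutation. The scripts were tested on simulated counts. Replicates are separate mice. Named genes are the 9 members, Fntb, the genes of each pathway list that passed or otherwise the 4 with the smallest p, and the 3 genes nearest to each member by Pearson r. The members and lists were chosen with earlier results of these data known. Gene positions are from GENCODE M21 (GRCm38), which held 99.5% of the table's gene IDs.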

Additional observations from a re-analysis of the deposited data

Results flagged for a closer look

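Of 27 groups examined for a sample far from the rest (9 genes in 3 genotypes, WT with all 6 mice), 4 stood out, all of them through WT mouse 19622. Chance flags about 1 group in 20, but these 4 share 1 library that was already known to stand apart over all genes, so they are no independent evidence. Its Camk2a level was 132 CPM, its Camk2b level 621 CPM, its Camk2d level 239 CPM and its Camk2n1 level 175 CPM. The same library carried the cerebellar markers given above.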

How the results depend on the processing

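The fall of Camkk2 in APP/PS1/FTnKO against WT mice kept its direction under every alternative and its side of the threshold under all but the fit of 18 mice. In APP/PS1/FTnKO against APP/PS1 mice 0 members passed, but 2 did with DESeq2, 2 without the filter and 2 with RIN as a covariate. Against WT 1 member passed, 4 with DESeq2, 3 without the filter, 0 with 18 mice and 1 to 3 with 1 mouse left out. The cause was not tested. Over all genes, 57 passed in APP/PS1/FTnKO against APP/PS1, 2 with 18 mice, 244 with DESeq2, 104 without the filter, 5 with only the genotypes compared, 261 with RIN and 10 to 81 with 1 mouse left out. In APP/PS1 against WT 261 passed, 458 with DESeq2, 452 without the filter, 84 with RIN and 124 to 465 with 1 mouse left out. In APP/PS1/FTnKO against WT 674 passed, 261 with 18 mice, 1302 with DESeq2, 388 with RIN and 206 to 987 with 1 mouse left out.

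Values near 0 changed sign. In APP/PS1 against WT the log2 fold change of Camk2b was 0.098 with 18 mice, 0.0013 without the sex term and 0.032 with RIN, and that of Camk4 was 0.020 with RIN. With 1 mouse left out it ranged from -0.067 to 0.090 for Camk2a, from -0.016 to 0.031 for Camk2b, from -0.13 to 0.0032 for Camk2d and from -0.0029 to 0.13 for Camk2n1. In APP/PS1/FTnKO against APP/PS1 it ranged from -0.10 to 0.0054 for Camk2d. In APP/PS1/FTnKO against WT, 18 mice gave 0.12 for Camk2n1 and -0.038 for Camk2n2, with mean CPM differences of 92.9 and -1.43, and RIN gave -0.020 for Camk2n2. The exact permutation p against WT was 0.697 for Camk2a and 0.545 for Camk2b with 18 mice. No paired analysis was possible because the labels used here name no litter or pair and replicate numbers follow accession order, so whether litters contribute was not tested.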
